A study of Mus musculus with 8 samples.

Results

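The 10 genes described here are pericentral hepatocyte and Wnt target genes: Glul, Cyp2e1, Oat, Axin2, Lgr5, Slc1a2, Rhbg, Lhpp, Tbx3 and Rnf43. They were taken by symbol from the 17810 genes of the liver RNA-Seq table, where each occurs once. Whole livers of male littermates, 4 WT and 4 HKO, were sequenced at an age of 5 months, after 3 months on CD-HFD, a diet rich in fat and lacking choline. HKO mice carry miR-33 alleles flanked by loxP sites and a Cre recombinase driven by the albumin promoter, which removes the miRNA in hepatocytes and may also act in cholangiocytes. Whether WT littermates carry the flanked alleles is not given in the sources used here, and no group ate a control diet in these samples. Mir33 itself was not analysed here, so genotype rests on the labels. The comparison asks how the genes of the pericentral zone differ between steatotic livers with and without miR-33 in hepatocytes.

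Hepatocytes along the liver lobule differ by their distance from the central vein. Endothelial cells of that vein release Wnt ligands and R-spondin 3, which stabilise β-catenin in the nearest hepatocytes. With TCF/LEF factors, β-catenin switches on a pericentral program that includes glutamine synthesis, ammonia uptake and xenobiotic oxidation, while the urea cycle and gluconeogenesis run mainly in periportal hepatocytes. Feedback genes of the pathway, Axin2 and Rnf43 among them, are induced by the same signal and limit it. The genes therefore fall into enzymes and transporters of the zone (Glul, Oat, Slc1a2, Rhbg, Cyp2e1 and Lhpp) and components or targets of the Wnt pathway (Axin2, Lgr5, Rnf43 and Tbx3).

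The sequence of the deleted miRNA and the matches to it are shown because a miRNA acts on transcripts that hold a match to its seed. The mature miR-33-5p lies on the plus strand of GRCm38.p6 at chr15:82198127-82198147, and the capitals mark its seed, bases 2 to 8.
miR-33-5p: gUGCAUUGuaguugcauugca
The annotated 3'UTRs of the 10 genes were searched for the DNA words CAATGCA and AATGCAA, which pair with bases 2 to 8 of the miRNA and with bases 2 to 7 followed by an A, and which overlap by 6 letters. The match is in capitals in the sites below, which are read 5′ to 3′ on the transcript.
Slc1a2 site: aaagactaatgAATGCAAagagactaatt
Lgr5 site: gccaatttcccCAATGCAttaactgtaca
These were the 2 genes of the 10 with a match. The Slc1a2 match starts at base 8979 of a 3'UTR of 9250 bases, and the Lgr5 match at base 1585 of 1703. Of the 11614 tested genes with an annotated 3'UTR, 16.1% held a match, and their median 3'UTR was 1202 bases, well under the length for Slc1a2. A match is a description of the letters and not a measured site.

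Promoters were read because the Wnt pathway acts through TCF/LEF factors. The RefSeq promoter table of GRCm38.p6, which gives 250 bases before and 50 after each start, held 7 promoters of 6 of the genes, with 2 starts for Rnf43. Lgr5, Rhbg, Lhpp and Tbx3 were not matched in it. Both strands were searched for the TCF/LEF words CTTTGAT and CTTTGAA, whose reverse complements are ATCAAAG and TTCAAAG. Cyp2e1 and Slc1a2 each held 1 word, in capitals below, and these promoters are shown because the same genes had the smallest p-values of the 10.
Cyp2e1 promoter, chr7:140763569-140763868, plus strand: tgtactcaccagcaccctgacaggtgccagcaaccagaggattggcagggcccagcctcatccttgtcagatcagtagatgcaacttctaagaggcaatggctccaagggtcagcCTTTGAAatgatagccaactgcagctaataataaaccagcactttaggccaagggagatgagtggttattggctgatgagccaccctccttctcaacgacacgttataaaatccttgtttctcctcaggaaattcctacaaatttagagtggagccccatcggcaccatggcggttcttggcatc
Slc1a2 promoter, chr2:102706188-102706487, plus strand: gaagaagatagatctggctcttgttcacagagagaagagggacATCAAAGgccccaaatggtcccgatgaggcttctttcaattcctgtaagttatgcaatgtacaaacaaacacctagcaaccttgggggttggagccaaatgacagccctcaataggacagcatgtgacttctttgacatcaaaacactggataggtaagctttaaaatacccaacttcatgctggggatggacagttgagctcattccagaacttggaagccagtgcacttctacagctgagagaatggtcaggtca
The Cyp2e1 word begins 135 bases before the start site and reads CTTTGAA on the gene's strand. The Slc1a2 word begins 207 bases before the start site and reads ATCAAAG, that is, CTTTGAT on the other strand. This Slc1a2 start is one inside the interval listed for the gene, not its first base. The same words occurred in 8.65% of the 32851 promoters of the table, and not in the windows of Glul, Oat, Axin2 or Rnf43.

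The libraries held 12174339 to 18735785 estimated counts. Levels are in CPM, with library totals adjusted by TMM factors, and the floor of 3 counts lies between 0.16 and 0.246 CPM, a limit that covers counting error only. All 10 genes passed the expression filter in both genotypes, and the lowest raw value among them was 20 counts, for Rhbg. The livers expressed the defining hepatocyte gene Alb at 47064 to 98815 CPM. Fewer cells of a type and less RNA per cell cannot be told apart in such whole-liver libraries. Sample names in the authors' table end in a number, 55 to 58 for HKO and 59 to 62 for WT livers. Whatever this number counts, such as an order of libraries, it cannot be told apart from genotype. HKO replicate 2 held 16.9 CPM of Krt19 and 16.5 CPM of Epcam, cholangiocyte genes that stood at 0.169 to 1.07 CPM and 0.329 to 1.02 CPM in the other livers. HKO replicate 3 had the lowest summed level of 7 hepatocyte markers, 73597 CPM, against 85695 to 125989 CPM in the others. Over all genes tested it also lay far from the rest of its group, with a chi-square per gene of 113 to 128 against each other HKO liver, where all other pairs within a genotype had 19.4 to 44.8. Fold changes without this liver are therefore given beside those with it for Oat, Slc1a2, Rhbg, Lhpp, Axin2, Rnf43, Lgr5 and Tbx3. The hepatocyte sum is mostly Alb, which was lowest in HKO replicate 3 at 47064 CPM. The other hepatocyte markers did not all follow it. In that liver Apoa1, at 6076 CPM, was the highest of the 8 livers and Cyp3a11, at 847 CPM, the lowest. On the same list Hnf4a had a log2 fold change of 0.36 and Serpina1a of 0.61 (edgeR, adjusted p = 0.0406 and 0.0244, called in 1 and 3 of the 8 fits leaving out a liver). Cyp3a11, also on it, had one of -0.85 with no overlap (adjusted p = 0.0592). Summed over their lists, central vein markers ranged over 21.5 to 26.4 CPM in WT and 21.7 to 35.8 CPM in HKO livers, stellate cell and fibroblast markers over 372 to 532 and 307 to 414 CPM, Kupffer cell markers over 91.8 to 230.1 and 69.2 to 217 CPM, cholangiocyte markers over 40.6 to 51.0 and 31.0 to 111 CPM, and lymphocyte markers over 0.909 to 4.03 and 4.09 to 5.67 CPM. Dcn makes up most of the stellate cell and fibroblast sum, and on that list the collagen genes Col1a1 and Col3a1 fell by 2.81 and 1.87 on the log2 scale without overlap (edgeR, adjusted p = 0.00723 and 0.0137, called in 8 of the 8 fits leaving out a liver). The part of these markers in the differences given below was not tested. Differences were tested with edgeR's quasi-likelihood model over 12395 genes, and a gene was called when its adjusted p (Benjamini-Hochberg over all genes tested) was under 0.05. Of all genes tested, 624 were called, with 206 higher and 418 lower in HKO livers. When livers were scaled by total counts alone, 119 were higher and 621 lower. Single livers weighed on this number, with 212 genes without WT replicate 2, 272 without WT replicate 1 and 364 without HKO replicate 4. Replicates are different mice, and p-values measure the spread between these livers.

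None of the 10 genes was called between HKO and WT livers by edgeR, 0 of 10 in either direction. Of all genes tested 5.03% were called, 1.66% as higher and 3.37% as lower in HKO livers. At an unadjusted p under 0.05 there were 2, Cyp2e1 and Slc1a2, both higher in HKO, where 19.8% of all genes tested met that limit. DESeq2 called both genes with an adjusted p under 0.05 (7.18% of the genes to which it gave an adjusted p), and limma-voom called 0. On simulated counts more of the DESeq2 calls than of the edgeR calls fell on unchanged genes, with limma-voom lowest, and the calls made by DESeq2 alone are to be read with that. In the edgeR fit 8 of the genes had a fold change above 0 and 2 below, with a median log2 fold change of 0.28, beside a median of 0.01 over all genes tested. With total count scaling Axin2 and Rnf43 were below 0 as well. The levels of Cyp2e1 alone did not overlap between the genotypes, as was the case for 12.5% of all genes tested.

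The levels of the genes spanned a wide range, so they were compared with each other per length, as CPM per kilobase of annotated exon. Cyp2e1 came first at 5509 ± 257 in WT and 6961 ± 563 in HKO livers (SD, n = 4). Glul stood at 555 ± 56.3 and 529.9 ± 72.2 and Oat at 469.9 ± 102 and 629 ± 209 on the same scale. Glul exceeded Oat in 4 of the 8 livers, so their order does not hold beyond the spread. Slc1a2 followed at 24.7 ± 3.44 in WT and 37.3 ± 8.33 in HKO livers, then Lhpp at 21.1 ± 2.08 and 24.7 ± 6.77, and Tbx3 at 11.6 ± 2.61 and 14.8 ± 6.59. The ranges of these neighbours overlapped, but Slc1a2 was above Lhpp in 8 of 8 livers and Lhpp above Tbx3 in 7. The Wnt pathway components were at the low end. Rnf43 had 3.81 ± 0.575 in WT livers and 3.84 ± 0.515 in HKO livers, and was above Lgr5 in 8 of 8 livers. Lgr5, at 2.14 ± 0.235 and 2.68 ± 0.509, Axin2, at 1.88 ± 0.406 and 1.88 ± 0.594, and Rhbg, at 1.53 ± 0.412 and 1.25 ± 0.488, came last. The range of Lgr5 overlapped that of Axin2 and the range of Axin2 that of Rhbg, whereas Rnf43 and Lgr5 did not overlap.

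**Figure D1:**
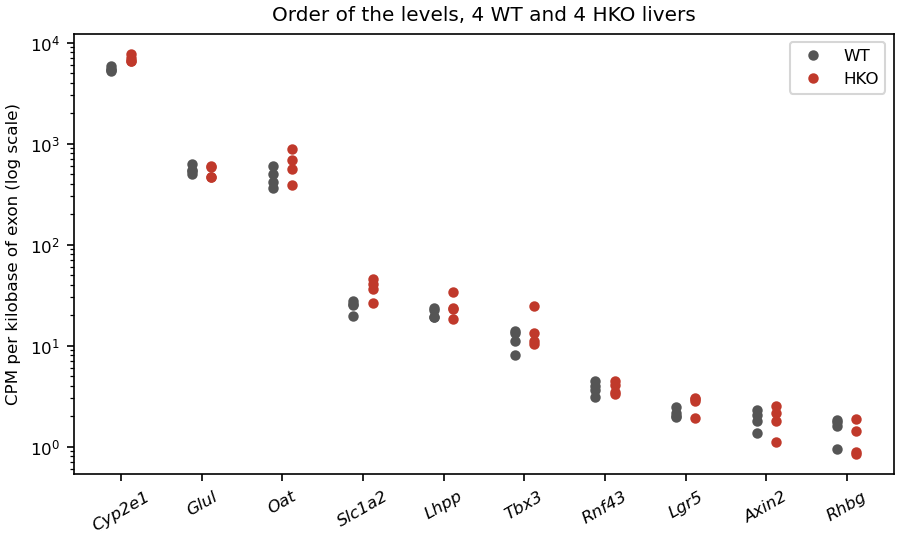
CPM per kilobase of exon (log axis) of the 10 genes, ordered by the median over all livers; each point is 1 liver, grey for the 4 WT and red for the 4 HKO livers. Cyp2e1 lies above 5252 in every liver, and Rhbg, Axin2 and Lgr5 lie at or under 3.03.

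Glul encodes glutamine synthetase, the enzyme that captures ammonia in the last layers of hepatocytes before the central vein, and lies at chr1:153899929-153909724 on the plus strand (coordinates of the genes are those listed by the authors, on GRCm38). Its level in WT replicates 1 to 4 was 1564, 1826, 1435 and 1598 CPM, and in HKO replicates 1 to 4 it was 1689, 1738, 1366 and 1341 CPM. Both genotypes covered nearly the same range, although HKO replicates 3 and 4 were the lowest of the 8. WT livers averaged 1606 ± 163 CPM and HKO livers 1533 ± 209 CPM (SD, n = 4). The fitted log2 fold change was -0.07 with an SE of 0.12 (edgeR, adjusted p = 0.818), which is smaller than the spread between livers.

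Oat encodes ornithine aminotransferase, which turns ornithine into a precursor of glutamate and proline (chr7:132557475-132576399, minus strand). WT livers held 858, 1183, 986 and 1409 CPM, and HKO livers 2078, 1629.8, 910.2 and 1324 CPM. HKO replicates 1 and 2 were above every WT liver, while HKO replicate 3 lay among the lowest, so the genotypes overlapped. Its log2 fold change was 0.42 with an SE of 0.25 (edgeR, adjusted p = 0.41), and it ranged from 0.22 to 0.60 when single livers were left out, with 0.60 without HKO replicate 3.

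Slc1a2 encodes a glutamate transporter, known as GLT-1, which in the liver serves pericentral hepatocytes (chr2:102658689-102790785, plus strand). WT livers held 241, 311, 339 and 314 CPM, and HKO livers 561, 496, 322 and 438 CPM. HKO replicates 1, 2 and 4 were above every WT liver, and HKO replicate 3 lay within the WT range. WT livers averaged 301 ± 41.9 CPM and HKO livers 454 ± 102 CPM (SD, n = 4). The fitted level was 1.51-fold that of WT, a log2 fold change of 0.59 with an SE of 0.16, the highest of the 10 genes. It did not pass edgeR's threshold (adjusted p = 0.0713), and an exact permutation test of the 8 levels gave a two-sided p of 0.0571. Without HKO replicate 3 the log2 fold change was 0.73 with an adjusted p of 0.0109 in edgeR, and none of the other fits that left out 1 liver called the gene. DESeq2 gave an adjusted p of 0.00638 with all livers. The authors' table holds values for this gene that lie more than 0.01 from a whole number in 8 of 8 livers, so part of its reads was shared with other features.

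Rhbg encodes an ammonia transporter of the Rhesus family (chr3:88242874-88254685, minus strand). It had 1.82, 3.07, 3.58 and 3.42 CPM in WT livers and 2.77, 1.62, 3.61 and 1.70 CPM in HKO livers, which rests on 20 to 72 counts a library. HKO replicates 2 and 4 were lowest, and WT replicate 1 was almost as low. The log2 fold change was -0.28 with an SE of 0.30 (edgeR, adjusted p = 0.665), so the direction lies within its error. Leaving out single livers moved it between -0.55 without HKO replicate 3 and -0.13 without HKO replicate 2, and no such fit called the gene.

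Cyp2e1 encodes the cytochrome P450 that oxidises ethanol, acetaminophen and fatty acids and can release reactive oxygen (chr7:140763819-140774991, plus strand). WT livers held 9926, 10175, 9659 and 10765 CPM, and HKO livers 12046, 12056, 12855 and 14247 CPM. The lowest HKO level exceeded the highest WT level, and the WT values lay close together. WT livers averaged 10131 ± 472 CPM and HKO livers 12801 ± 1036 CPM (SD, n = 4). The fitted level was 1.26-fold that of WT, a log2 fold change of 0.34 with an SE of 0.11 (edgeR, unadjusted p = 0.0088, adjusted p = 0.100). The exact permutation test gave a two-sided p of 0.0286, the smallest that 4 against 4 livers allow. Such a test was run for each of the 10 genes, and the other p-values ranged from 0.0571 for Slc1a2 to 0.971 for Axin2 and Rnf43. DESeq2 called the gene with an adjusted p of 0.00102, and limma-voom did not, with an adjusted p of 0.0701. The call thus depends on the tool, whereas the direction did not change in any alternative fit that was run.

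Lhpp encodes a histidine phosphatase (chr7:132610643-132706420, plus strand). It had 35.9, 43.3, 35.9 and 41.5 CPM in WT livers and 63.6, 43.4, 33.9 and 42.7 CPM in HKO livers. HKO replicate 1 alone stood well above the other livers, and HKO replicate 3 was the lowest of all. Its log2 fold change was 0.23 with an SE of 0.17 (edgeR, adjusted p = 0.51), and leaving out single livers moved it between 0.03 and 0.35, with 0.35 without HKO replicate 3.

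**Figure D2:**
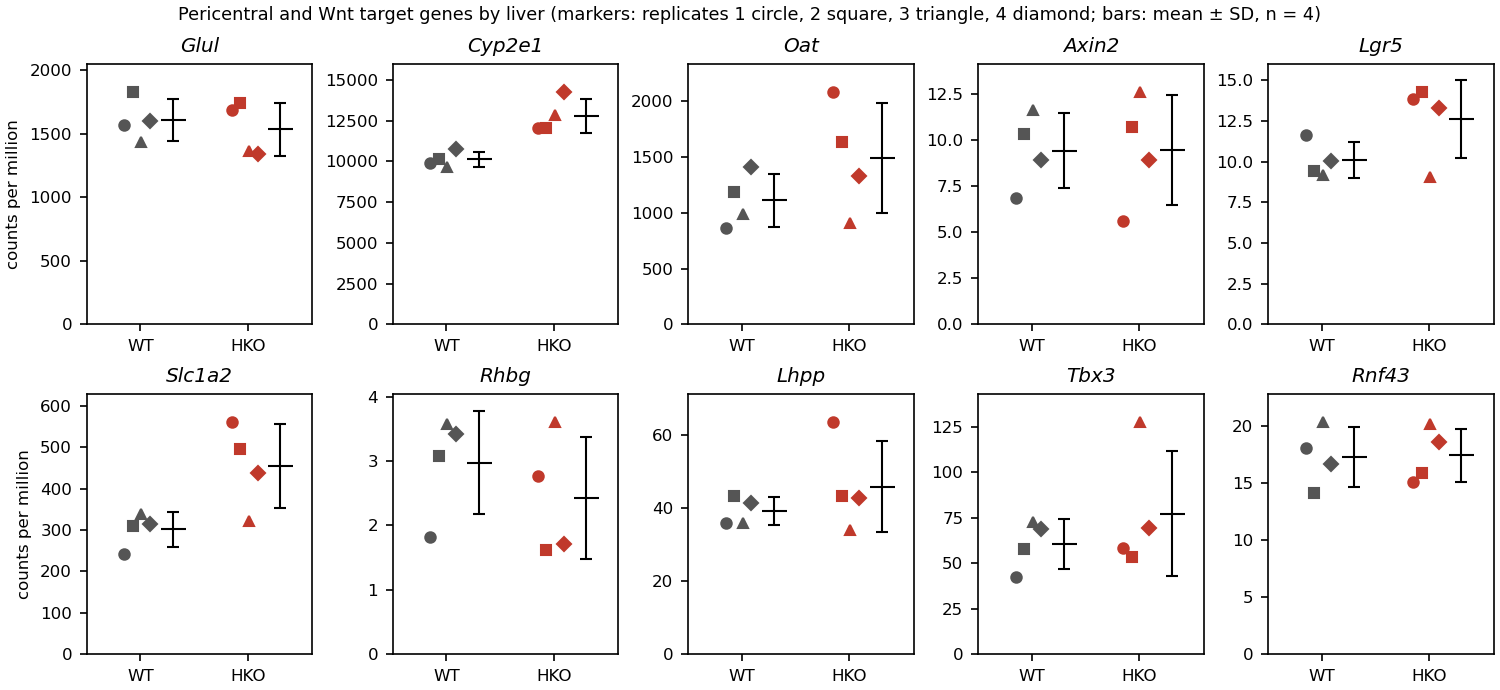
CPM of each gene (vertical axes from 0) in the 4 WT (grey) and 4 HKO (red) livers; the marker shape gives the replicate number and the bars give the mean ± SD. The Cyp2e1 levels of the genotypes do not overlap, and for Slc1a2 HKO replicate 3, the triangle at 322 CPM, lies within the WT range.

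Axin2 encodes a scaffold of the complex that degrades β-catenin and is the usual readout of canonical Wnt signalling (chr11:108920349-108950782, plus strand). WT livers held 6.86, 10.3, 11.6 and 8.94 CPM, and HKO livers 5.60, 10.7, 12.6 and 8.94 CPM. Low and high livers occurred in both genotypes, and the ranges were nearly the same. WT livers averaged 9.44 ± 2.04 CPM and HKO livers 9.47 ± 2.99 CPM (SD, n = 4). The fitted log2 fold change was 0.00 with an SE of 0.24 (edgeR, adjusted p = 0.998), and its sign changed with the scaling and with the liver left out, within -0.19 to 0.19, with -0.19 without HKO replicate 3.

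Rnf43 encodes a ubiquitin ligase that removes Frizzled receptors from the cell surface (chr11:87663087-87735540, plus strand). It had 18.0, 14.1, 20.3 and 16.6 CPM in WT livers and 15.1, 15.8, 20.1 and 18.6 CPM in HKO livers. The HKO values lay within the WT range. The log2 fold change was 0.01 with an SE of 0.13 (edgeR, adjusted p = 0.98), with total counts as the scale it was -0.09, and without HKO replicate 3 it was -0.0703.

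Lgr5 encodes a receptor for R-spondins that strengthens Wnt signals and marks pericentral hepatocytes (chr10:115450314-115587781, minus strand). WT livers held 11.7, 9.42, 9.20 and 10.1 CPM, and HKO livers 13.8, 14.3, 9.07 and 13.3 CPM. HKO replicates 1, 2 and 4 exceeded every WT liver, as for Slc1a2, and HKO replicate 3 was the lowest of the 8. WT livers averaged 10.1 ± 1.11 CPM and HKO livers 12.6 ± 2.40 CPM (SD, n = 4). The fitted log2 fold change was 0.32 with an SE of 0.15 (edgeR, adjusted p = 0.274), and without HKO replicate 3 it was 0.46 with an adjusted p of 0.0732.

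Tbx3 encodes a T-box transcription repressor induced by β-catenin in the liver (chr5:119670862-119684725, plus strand). It had 42.2, 57.9, 72.4 and 69.0 CPM in WT livers and 58.1, 53.5, 128 and 69.3 CPM in HKO livers. HKO replicate 3 carried the difference, and the other HKO livers lay within the WT range. Its log2 fold change was 0.35 with an SE of 0.31 (edgeR, adjusted p = 0.607), and without HKO replicate 3 it was -0.0043. Its values also lie more than 0.01 from a whole number in 7 of 8 livers.

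**Figure D3:**
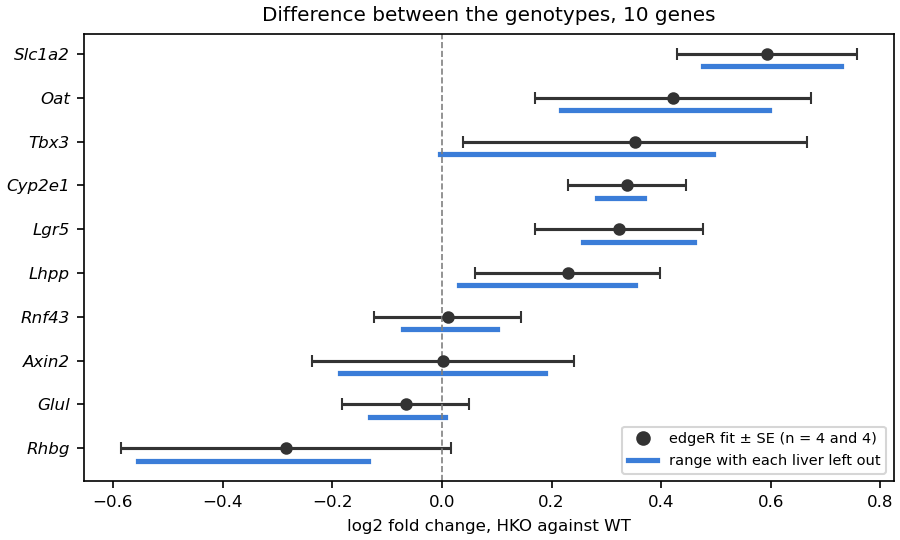
Log2 fold change (HKO against WT, horizontal axis) of the 10 genes with its SE from edgeR, and in blue the range when each of the 8 livers is left out in turn. Slc1a2 is highest at 0.59, Cyp2e1 has the smallest SE at 0.11, and the ranges of Glul, Axin2, Rnf43 and Tbx3 cross 0.

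The 10 genes did not move together among the livers. HKO replicate 3 had the lowest HKO level of Oat, Slc1a2, Lgr5 and Lhpp, and the highest HKO level of Axin2, Tbx3, Rhbg and Rnf43. WT replicate 1 had the lowest WT level of Oat, Axin2, Slc1a2, Rhbg and Tbx3, and the highest of Lgr5. For Lhpp it shared the lowest level, 35.9 CPM, with WT replicate 3. HKO replicate 1 showed the widest gap between genes, with Oat 0.93 above and Axin2 0.71 below the WT mean in log2 CPM. The ratio of the highest to the lowest liver ranged from 1.36 for Glul to 3.02 for Tbx3. The coefficient of variation among WT livers ran from 4.66% for Cyp2e1 to 26.8% for Rhbg, and among HKO livers from 8.09% for Cyp2e1 to 44.5% for Tbx3. The share of the hepatocyte marker level or of other cells in these gaps between livers was not tested.

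**Figure D4:**
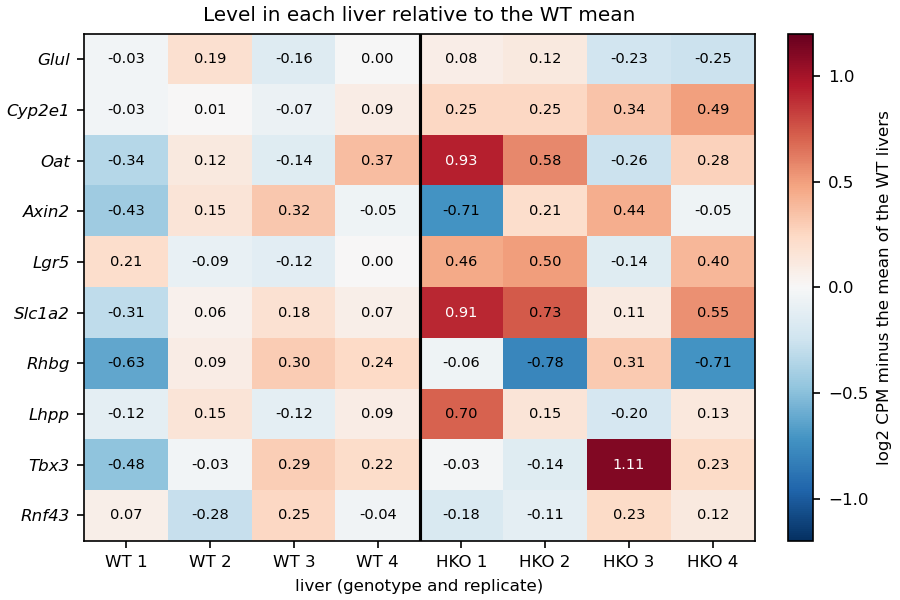
Log2 CPM of each gene in each liver minus the mean of the 4 WT livers (colour and printed value). HKO replicate 3 stands apart in the HKO group, with Tbx3 at 1.11 and Oat at -0.26.

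The genes whose levels were most like those of Glul, Cyp2e1 and Axin2 over the 8 livers were found by Pearson's r of log2 CPM. For Glul these were Vps53, Nfia, Cdk5rap3, Mark2 and Gltp, with r from 0.92 to 0.94. For Axin2 they were Tmem175, Alad, Trim62, Usb1 and Mpv17l2, with r from 0.92 to 0.98. For Cyp2e1 they were Cct5, Pard3, Cfb, Vtn and Hnrnpll, with r of 0.97 to 0.98 over the 8 livers and 0.83 to 0.90 for deviations from the genotype means. None of these 15 genes is on a list of Wnt or pericentral genes used here, and all points share the libraries and their depth. The 15 were picked for the highest r among all genes tested over only 8 livers. High values therefore come in part from the choice, and r was not tested.

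Ligands of the central vein showed no call. Rspo3, the R-spondin of central vein endothelium, had 14.3, 11.3, 11.2 and 12.1 CPM in WT livers against 17.1, 11.7, 11.4 and 12.8 CPM in HKO, a log2 fold change of 0.12 with an SE of 0.15 (edgeR, adjusted p = 0.723). Wnt2, a ligand of central vein and sinusoidal endothelium, had 1.49, 1.54, 2.83 and 0.526 CPM in WT livers against 3.91, 1.08, 1.35 and 4.17 CPM in HKO (edgeR, adjusted p = 0.563). Its 3 highest livers, HKO replicates 4 and 1 and WT replicate 3, also had the 3 highest summed levels of 7 sinusoidal endothelial markers, 228 to 260 CPM against 75.9 to 128 CPM in the others. The part of endothelial content in the Wnt2 levels was not tested. Wnt9b stayed between 0.131 and 0.618 CPM, near the floor, and did not pass the filter. Of 8 tested ligands, R-spondins and secretion genes, 0 were called by edgeR, beside 5.03% of all genes tested. On so short a list, 0 calls lie near that share. DESeq2 also called 0, beside 7.18% of its genes, and 0 had an unadjusted p under 0.05 in edgeR, beside 19.8%. The 2 with the smallest p were Wnt5a, with a log2 fold change of -0.90 and an SE of 0.41 (adjusted p = 0.253), and Wnt5b, with -0.36 and an SE of 0.22 (adjusted p = 0.409). Leaving out single livers moved Wnt5a between -1.43 and -0.65, and without HKO replicate 2, at -1.43, its adjusted p was 0.0488 in edgeR.

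Among 12 tested Wnt receptors 0 were called by edgeR, beside 5.03% of all genes tested. An unadjusted p under 0.05 was found for 3, beside 19.8% of all genes tested. DESeq2 called 1, Lgr4, beside 7.18% of its genes. Lgr4, the receptor for R-spondins that hepatocytes express throughout the lobule, had 90.0, 91.9, 85.6 and 107.98 CPM in WT livers against 109, 121, 126 and 118 CPM in HKO. Its groups did not overlap, and its log2 fold change of 0.33 with an SE of 0.09 lay at the threshold (edgeR, adjusted p = 0.051; DESeq2, 0.013). In edgeR the gene was called with RLE scaling (adjusted p = 0.0493), without HKO replicate 1 (0.0477) and without WT replicate 4 (0.0192), and not in the other fits that left out 1 liver (up to 0.147), with total count scaling (0.112) or with the replicate block (0.100). Znrf3, the partner of Rnf43 in removing Frizzled receptors, had a log2 fold change of 0.26 with an SE of 0.09 (edgeR, adjusted p = 0.15), and Fzd1 one of -0.33 with an SE of 0.12 (adjusted p = 0.135).

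Of 25 tested genes of the β-catenin core, 2 rose in HKO livers and 0 fell, 8% called beside 5.03% of all genes tested, of which 1.66% were called as higher. Tle4 and Tle1 encode Groucho corepressors that bind TCF factors when β-catenin is absent. Tle4 had 8.59 to 11.5 CPM in WT livers against 15.8 to 18.7 CPM in HKO, a log2 fold change of 0.77 with an SE of 0.12 (edgeR, adjusted p = 0.00452). Tle1 rose with a log2 fold change of 0.47 and an SE of 0.11 (edgeR, adjusted p = 0.0298), a call that held in 2 of the 8 fits leaving out 1 liver. Ctnnb1, which encodes β-catenin, had 179.4 to 201 CPM in WT livers against 191.2 to 219 CPM in HKO (edgeR, adjusted p = 0.331). Tcf7l2, the main TCF factor of hepatocytes, had 25.1 to 28.1 CPM and 24.7 to 31.8 CPM (edgeR, adjusted p = 0.515).

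Of 7 tested antagonists and targets of the pathway outside the 10 genes, 1 fell and 0 rose in edgeR. Of all genes tested, 3.37% were called as lower. DESeq2 called 2 of the 7, Tnfrsf19 and Notum, beside 7.18% of its genes. Tnfrsf19, a receptor of the TNF family, fell from 11.9 to 21.2 CPM in WT livers to 5.18 to 7.41 CPM in HKO (log2 fold change -1.43, SE 0.19; edgeR, adjusted p = 0.00207). Notum, a secreted hydrolase that inactivates Wnt ligands and is itself a target, had 13.4 to 16.8 CPM and 15.9 to 25.4 CPM (log2 fold change 0.52, SE 0.15, edgeR adjusted p = 0.0671). DESeq2 called Notum with an adjusted p of 0.0309, and without HKO replicate 1 edgeR did so at 0.65 with an adjusted p of 0.0131. Nkd1 and Sp5, 2 further feedback targets, had log2 fold changes of 0.07 with an SE of 0.20 and of -0.06 with an SE of 0.32, and their signs changed when single livers were left out. Ccnd1 and Myc, also on the list, were at -0.67 with an SE of 0.30 and -1.67 with an SE of 0.77, with overlap (edgeR, adjusted p = 0.275 and 0.293). Myc was highest in WT replicate 1, at 18.0 CPM. Both are outside the naming rule and were added after their values were seen. Of the 7, 3 were above 0 and 4 below. Wif1, a secreted inhibitor of Wnt ligands on the same list, did not pass edgeR's expression filter and was called by DESeq2 alone (adjusted p = 0.0115), with 0.0995 to 0.331 CPM in WT livers and 0.0675 to 2.65 CPM in HKO, which overlap and lie partly under the floor. It is outside the naming rule and was added after its values were seen. Over all 4 parts of the pathway 3 of 52 tested genes were called, 5.77%, beside 5.03% of all genes tested, and 5 were called without HKO replicate 1.

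Of 24 other pericentral genes 10 were called, 41.7%, with 8 higher and 2 lower in HKO livers, beside 5.03% of all genes tested and 0 of the 10 genes. The difference between these lists was not tested, and their median log2 fold changes were 0.26 for the 24 and 0.28 for the 10. All lists were chosen with earlier results of these data known, so their shares of calls are not independent of those results. Cyp1a2, the pericentral P450 of caffeine and aromatic amine metabolism, had 143.3 to 173 CPM in WT livers against 303 to 702 CPM in HKO (log2 fold change 1.79, SE 0.23; edgeR, adjusted p = 0.00491). Cyp2e1 had a log2 fold change of 0.34. Avpr1a, a vasopressin receptor, rose by 1.72 with an SE of 0.23, Cyp2c50 by 0.95 with an SE of 0.17, Gulo, the last enzyme of vitamin C synthesis, by 0.67 with an SE of 0.09, Slc16a10 by 0.63 with an SE of 0.11, and Cyp27a1 by 0.52 with an SE of 0.12 (edgeR, adjusted p from 0.00235 to 0.0264). The other 2 with a call, Cyp2c37 at 0.95 with an SE of 0.20 and Cyp2c54 at 2.25 with an SE of 0.45, are outside the naming rule and were added after their values were seen. Cyp2c genes share sequence, and the authors' method splits such reads, so their separate levels are uncertain. Slc1a4, a neutral amino acid transporter and a relative of Slc1a2, fell by 0.94 with an SE of 0.23, and Nt5e, an ectonucleotidase, fell by 1.24 with an SE of 0.28 on the log2 scale (edgeR, adjusted p = 0.0397 and 0.0373). Each of these 2 decreases was called in 1 of the 8 fits leaving out a liver, the increase of Cyp27a1 in 3, and those of Cyp2c37 and Cyp2c54 in 2. The decrease of Slc1a4 was not called by limma-voom (adjusted p = 0.0683). The number called was 5 without WT replicate 1 or 2 and 6 without HKO replicate 2 or 4.

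Periportal genes gave 4 calls of 20, 20%, with 3 higher and 1 lower, beside the same 5.03%. Cps1, which brings ammonia into the urea cycle, and Ass1, which acts later in the cycle, rose by 1.26 with an SE of 0.18 and by 0.80 with an SE of 0.17 on the log2 scale (edgeR, adjusted p = 0.00433 and 0.028). Cps1 had 1822 to 3047 CPM in WT livers against 4888 to 6826 CPM in HKO. Pigr, the receptor that carries polymeric immunoglobulins, rose by 0.64 with an SE of 0.12, and Hsd17b13, a lipid droplet enzyme, fell by 0.77 with an SE of 0.13 (edgeR, adjusted p = 0.014 and 0.00914). Cyp2f2, a standard periportal marker, had a log2 fold change of 0.21 with an SE of 0.12 (edgeR, adjusted p = 0.368). The Ass1 call held in 2 of the 8 fits leaving out a liver, and the Pigr call in 6. Without WT replicate 1 or 2 there were 2 calls. DESeq2 called 8 of the 20, beside 7.18% of its genes. Cdh1 had the largest log2 fold change of the list, 1.78 with an SE of 0.57. Its levels overlapped, with 6.14 to 18.8 CPM in WT and 10.7 to 47.9 CPM in HKO livers. It was not called by edgeR (adjusted p = 0.15) or limma-voom (0.103) but was by DESeq2 (0.0275). Cdh1 is outside the naming rule and was added after its values were seen.

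Of 17 tested genes of glutamine and ammonia handling 2 rose and 0 fell, 11.8% beside 5.03% of all genes tested and 1.66% called as higher. Slc38a2, a transporter of neutral amino acids, rose by 0.66 with an SE of 0.09 and Slc25a15, the mitochondrial ornithine carrier, by 0.53 with an SE of 0.14 (edgeR, adjusted p = 0.00301 and 0.048). The Slc25a15 call held in 2 of the 8 fits leaving out a liver. It was lost in limma-voom (adjusted p = 0.0538) and in edgeR with the replicate block (adjusted p = 0.0907). The list had 4 calls without HKO replicate 3, and 1 call without WT replicate 1, 2 or 3 or HKO replicate 1 or 2. Gls2, the liver glutaminase that opposes Glul in the periportal zone, had 119 to 205 CPM in WT livers against 175 to 252 CPM in HKO (log2 fold change 0.44, SE 0.18; edgeR, adjusted p = 0.215). Got1 had the largest log2 fold change of the list, 1.33 with an SE of 0.32, and no overlap. It was not called by edgeR (adjusted p = 0.0628) but was by DESeq2 (0.00218) and limma-voom (0.0305). In edgeR 1 of the 8 fits leaving out a liver called it. Got1 is outside the naming rule and was added after its values were seen.

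**Figure D5:**
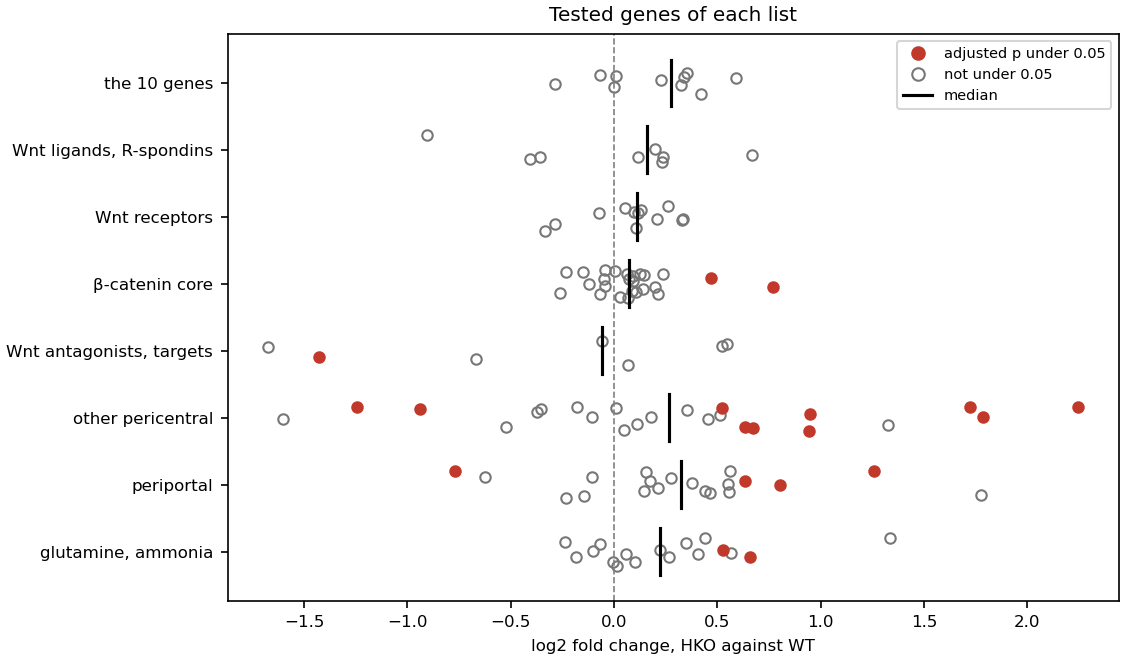
Log2 fold change (HKO against WT, horizontal axis) of every tested gene of the 10 and of the 7 other lists; filled red points have an adjusted p under 0.05, open points do not, and the bar is the median. No point of the 10 genes is filled, beside 10 of 24 among other pericentral genes. The lists were chosen with earlier results of these data known.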

How the data were processed

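RNA was taken from PBS-perfused livers, 1 library per mouse, with reads aligned in STAR and quantified in Partek (versions not given in the sources used here). The labels name both rRNA depletion and a small RNA kit, so the library type is uncertain. The authors deposited estimated counts per gene from an expectation-maximization method, without normalization, for 17810 genes; 80.5% of the values are whole within 1e-09 and 87.7% within 0.01. Estimated counts were rounded and tested in edgeR 4.0.16 (R 4.3.3; TMM, expression filter with a minimum count of 10, robust quasi-likelihood fit, Benjamini-Hochberg adjustment over 12395 genes). Each SE was derived from the fold change and its F statistic (size of the log2 value over the root of F). Log2 CPM adds a prior count of 2. Exact permutation tests covered the 70 allocations of 8 livers (scipy 1.17.1). Exon lengths and 3'UTRs (longest annotated per gene) came from GENCODE M21; 17789 symbols matched RefSeq of GRCm38.p6, of which 82.5% had the same start or end, and 65.3% of the listed ends lie 1 base past the RefSeq end.

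Other settings tried were RLE and total count scaling, DESeq2 1.42.0, the voom method of limma 3.58.1, other filters, the replicate number as a block, each liver left out, and a fold change above 1.5. Marker lists covered hepatocytes, central vein and sinusoidal endothelium, stellate cells and fibroblasts, Kupffer cells, cholangiocytes and lymphocytes. Named genes were the 10, up to 6 called genes per list and direction with the smallest p (or the 2 with the smallest p), and 13 chosen by role. The members and lists were chosen with earlier results of these data known. The models were tested on simulated data, in which DESeq2 and, less so, edgeR made more calls of unchanged genes than the nominal share, and limma-voom stood close to it.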

Additional observations from a re-analysis of the deposited data

Results flagged for a closer look

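In 98 groups of 4 livers, formed from the 10 genes, the other named genes and the summed marker lists, the highest or lowest liver was tested for its distance from the rest, and 6 groups held such a liver. Chance alone gives about 1 in 20. None of the 10 pericentral and Wnt target genes was among them. Nkd1 was at 3.49 CPM in HKO replicate 3, where the other HKO livers had 4.79 to 5.02 CPM. Cyp1a2 was at 173 CPM in WT replicate 4, while the remaining WT livers had 143.3 to 145 CPM. Cyp2f2 was at 559.7 CPM in WT replicate 3, against 468 to 479.7 CPM. Avpr1a was at 38.5 CPM in HKO replicate 4, against 22.2 to 24.8 CPM. Slc38a2 was at 130.6 CPM in WT replicate 4, against 107 to 110.2 CPM. The summed level of 7 Kupffer cell markers was 69.2 CPM in HKO replicate 2, against 201 to 217 CPM in the other HKO livers.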

How the results depend on the processing

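Of the 150 alternative values of the 10 genes, 132 kept direction and side of the threshold, 3 gained the call (Cyp2e1 and Slc1a2 in DESeq2, Slc1a2 without HKO replicate 3) and 15 changed sign, each in a gene whose fold change is near 0 or rests on 1 liver; the cause was not tested. Axin2 was at -0.0523 in limma-voom, -0.10 with total count scaling, -0.0039 with at least 10 counts in every liver, -0.0234 with the replicate block and -0.19 to 0.19 over the leave-one-out fits. Rnf43 was at -0.0852 with total count scaling and Nkd1 at -0.0275. Leaving out each liver moved Glul from -0.13 to 0.0056, Tbx3 from -0.0043 to 0.49, Rnf43 from -0.0703 to 0.10, Rspo3 from -0.0305 to 0.20, Nkd1 from -0.0486 to 0.19 and Sp5 from -0.25 to 0.10. DESeq2 called 975 genes in all, 2 of the 10, 6 Wnt pathway (Wif1, not tested in edgeR, among them), 8 periportal and 5 glutamine and ammonia genes. A fold change above 1.5 left 367 genes in all and 1 glutamine and ammonia gene, as did total count scaling (1) and the replicate block (1) for that list. Leaving out each liver gave 212 (without WT replicate 2) to 598 genes in all, 0 to 1 of the 10, 2 to 5 Wnt pathway, 5 to 9 other pericentral, 2 to 6 periportal and 1 to 4 glutamine and ammonia genes. Without WT replicate 1 there were 272 and without HKO replicate 4 there were 364. The replicate block called 456 genes and 0 of the 10. Deviations of same-numbered livers correlated at -0.17 to 0.07, and those of differently numbered livers at -0.25 to 0.31. With so few pairs this cannot decide whether same-numbered livers share more than a number. Depth limits Rhbg most among the 10, with 20 to 72 counts a liver.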
